A study of Mus musculus with 32 samples.

Results

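The genes of 9 liver-secreted metabolic hormones, called hepatokines, were examined in the livers of male offspring whose parents had been fed a high-fat (HF) or a low-fat (LF) diet. They were Fgf21, Gdf15, Angptl4, Enho, Inhbe, Inhbc, Ahsg, Fetub and Rbp4, chosen by gene name, and each had 1 of the 21115 probe sets on the array. Enho was lower at 28 than at 12 weeks of age, by 1.59-fold averaged over both parental diets, and the fall passed the adjusted test. Ahsg was also lower at 28 weeks, by a measured 1.07-fold at a signal close to the array maximum, where changes may be compressed. Angptl4 was 1.36-fold lower in HF/HF than in LF/HF offspring at 12 weeks by the criterion of the study, but not after adjustment over all probe sets. No hepatokine gene met the criterion between the parental diets at 28 weeks.

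The offspring were C57Bl/6J males, and each liver was hybridized to 1 whole transcript array. LF parents received standard chow with 9% of energy from fat, 33% from protein and 58% from carbohydrate, and HF parents a diet with 45%, 20% and 35%. Parents ate these diets from 6 weeks ahead of mating until the pups were weaned, and every pup received the HF diet from weaning on, so no group ate the LF diet after weaning. In group names such as LF/HF the parental diet stands before the slash and that of the offspring after it, with 7 mice in each group at 12 weeks of age and 9 in each at 28 weeks. Both parents received the same diet, so maternal and paternal effects cannot be told apart, and the chow and the HF diet differ in more than fat. The litter of a mouse is not given, so p-values measure the spread between mice and may be too small if mice of a group shared litters. Mice of different ages are different animals. Those of 28 weeks had also eaten the HF diet for longer, so age and time on this diet cannot be told apart.

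Values are log2 of the intensity that the authors normalized by the robust multichip average (RMA), and a difference of 1 is a 2-fold change. A gene met the criterion of the study at an unadjusted P below 0.05 and a fold change above 1.2. The adjusted p-values come from limma, with the Benjamini-Hochberg method applied across all 21115 probe sets. The defining genes of hepatocytes were bright in all 32 livers, with Alb between 13.30 and 13.42. Skeletal muscle genes set 3 mice apart, with a mean of the 10 markers of 8.80 in LF/HF replicate 1 and 4.33 in HF/HF replicate 3 of 12 weeks and 5.78 in LF/HF replicate 8 of 28 weeks, against at most 2.78 in the others. The array names fall into 2 series, whose meaning is not given and which both hold mice of all 4 groups. Probe sets differ in how well they bind, so the place of a gene among all probe sets describes its signal on the array and not its amount of RNA.

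Hepatokines are proteins that hepatocytes release into the blood and that act on adipose tissue, muscle, brain or the liver itself. FGF21 and GDF15 are hormones of nutrient and cellular stress, ANGPTL4 holds back lipoprotein lipase, and adropin, the peptide encoded by Enho, has been tied to the use of glucose and fat. Inhbe and Inhbc encode the subunits of activin E and activin C, Ahsg and Fetub encode fetuin-A and fetuin-B, and Rbp4 encodes the carrier of retinol in blood.

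Promoter windows from RefSeq (GRCm38.p6) were found for 7 of the 9 genes, 10 windows in all, each from 250 bases before to 50 bases after an annotated start. They were searched on both strands for TGATGNAA, the core letters of the element bound by C/EBP and ATF4 dimers, for the E-box CACGTG and for the TATA box TATAAA. Windows of Fgf21, Inhbe and Rbp4 held TGATGNAA, which 3.97% of all 32851 windows of this length held, and Fgf21 and Inhbe had the identical letters TTGCATCA on the strand shown. These windows are printed from their start up to the base before the annotated start, with matches to any of the searched motifs in capitals.
Fgf21, chr7:45615491-45615740, minus strand: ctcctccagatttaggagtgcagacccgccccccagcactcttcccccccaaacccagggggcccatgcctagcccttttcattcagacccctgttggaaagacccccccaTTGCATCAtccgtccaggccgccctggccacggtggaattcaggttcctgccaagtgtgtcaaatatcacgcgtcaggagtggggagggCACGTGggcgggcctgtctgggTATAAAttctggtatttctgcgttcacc
Inhbe, chr10:127351849-127352098, minus strand: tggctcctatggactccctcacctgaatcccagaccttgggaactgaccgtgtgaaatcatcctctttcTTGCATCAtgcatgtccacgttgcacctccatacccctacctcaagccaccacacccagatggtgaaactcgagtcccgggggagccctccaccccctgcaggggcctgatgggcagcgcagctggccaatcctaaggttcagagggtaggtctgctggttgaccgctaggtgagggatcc
Rbp4, chr19:38125322-38125571, minus strand: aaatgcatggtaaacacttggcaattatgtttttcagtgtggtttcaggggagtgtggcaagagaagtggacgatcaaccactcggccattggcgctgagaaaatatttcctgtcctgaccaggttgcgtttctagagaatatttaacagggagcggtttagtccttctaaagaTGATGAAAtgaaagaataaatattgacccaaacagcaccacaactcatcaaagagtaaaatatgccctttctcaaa
In the Fgf21 window the match to TGATGNAA began 139 bases before the start, the E-box 50 bases and the TATA box 28 bases before it. The match in the Inhbe window began 181 bases before the start and that in the Rbp4 window 76 bases before it. A second annotated start of Rbp4 had a TATA box 28 bases upstream and no TGATGNAA. The window at the first listed start of Fetub had a TATA box 31 bases upstream, and 1 window of Gdf15 had an E-box. The E-box was held by 7.15% and the TATA box by 13.6% of all windows. The windows of Ahsg and Inhbc held none of these letters. Such matches describe the sequence and do not show that a factor bound there.

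Fgf21, which signals through FGF receptors with the co-receptor beta-Klotho, lay low on the arrays, 0.96 above the median probe set on the log2 scale, and showed no difference between groups beyond the spread of the mice. At 12 weeks its log2 values ran from 3.56 over a median of 4.17 to 4.48 in LF/HF and from 3.38 over 3.91 to 6.01 in HF/HF offspring. At 28 weeks they ran from 3.36 over 3.83 to 4.68 in LF/HF and from 2.63 over 3.94 to 4.74 in HF/HF offspring. The groups overlapped at both ages, and a single HF/HF mouse of 12 weeks, replicate 3, held the value of 6.01, far above the next of its group at 4.67. This mouse is one of those with skeletal muscle genes. Of all 32 it also had the highest list mean of Kupffer cell markers (7.02) and stellate cell markers (6.79). The same held for the targets of the integrated stress response (4.94) and of PPARalpha (8.85). Their part in its Fgf21 value was not tested. The difference of HF/HF minus LF/HF was 0.0015 (95% interval -0.63 to 0.64) at 12 weeks and -0.094 (-0.65 to 0.47) at 28 weeks. Without the 3 mice with muscle genes the difference at 12 weeks was -0.30.

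Gdf15, a stress-induced hormone that lowers food intake through its receptor GFRAL in the hindbrain, was also near the level of the median probe set, 0.55 above it. The values ran from 3.27 over a median of 3.66 to 4.39 in LF/HF and from 3.23 over 3.59 to 4.44 in HF/HF offspring of 12 weeks. At 28 weeks they ran from 2.90 over 3.73 to 3.84 in LF/HF and from 2.71 over 3.66 to 4.46 in HF/HF offspring. All 4 groups overlapped, and the lowest LF/HF mouse of 28 weeks, replicate 3, lay apart from the next at 3.40. The difference between the parental diets was -0.040 (95% interval -0.46 to 0.38) at 12 weeks and 0.046 (-0.33 to 0.42) at 28 weeks.

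Angptl4 was highest in the LF/HF offspring of 12 weeks. In this group it ran from 7.89 over a median of 8.01 to 8.47, with a mean of 8.11 ± 0.25 (SD, n = 7 mice). In HF/HF offspring of the same age it ran from 7.26 over 7.56 to 8.08, with a mean of 7.67 ± 0.32 (SD, n = 7 mice). Every HF/HF mouse had less Angptl4 than the average of the LF/HF group and 4 of the 7 had less than its lowest mouse, so the groups overlapped only in part. The log2 difference was -0.44 (SE 0.15, unadjusted P = 0.00468, adjusted p = 0.999 from limma), and a two-sided exact permutation test of the mice gave p = 0.0181, where 0.000583 is the smallest this design allows. The adjusted p was at least 0.774 under all 11 alternatives that gave one. Within array series 1 and 2 the difference was -0.61 and -0.33, the latter with an unadjusted P of 0.0619. Endothelial marker genes moved the same way at 12 weeks, with 8 of 8 lower in HF/HF offspring (median -0.21). By the criterion 1 of them was lower, beside 1.47% of all probe sets. Their list means ran from 6.36 to 6.67 in LF/HF and from 6.15 to 6.38 in HF/HF mice. The part of these marker genes in the result was not tested. LF/HF replicate 1, with the most muscle RNA, also had the highest Angptl4 of 8.47, and without the 3 mice with muscle genes the difference was -0.32 (unadjusted P = 0.0466 from limma).

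At 28 weeks the groups no longer stood apart in Angptl4, with values from 7.11 over a median of 7.62 to 8.01 in LF/HF and from 7.14 over 7.66 to 7.98 in HF/HF offspring. The difference was -0.034 (95% interval -0.30 to 0.23). The change in the parental diet difference between the ages was 0.41 (SE 0.20, unadjusted P = 0.0436, adjusted p = 0.974 from limma), and its criterion was lost without the mice with muscle genes, where it was 0.27. From 12 to 28 weeks, Angptl4 was lower by the criterion in LF/HF offspring, at -0.47 (SE 0.14, unadjusted P = 0.00181, adjusted p = 0.111 from limma), where all 9 mice of 28 weeks lay below the mean of 12 weeks. In HF/HF offspring the difference between the ages was -0.058 (95% interval -0.34 to 0.22). Both differences with LF/HF offspring of 12 weeks rest on the same 7 mice.

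Enho was lower at 28 weeks by the criterion in both parental diet groups. Its mean signal lay 1.78 above the median probe set on the log2 scale, beside 0.96 for Fgf21. Its values at 12 weeks ran from 4.79 over a median of 5.28 to 5.94 in LF/HF and from 4.57 over 5.11 to 5.67 in HF/HF offspring. At 28 weeks they ran from 4.0 over 4.44 to 5.11 in LF/HF and from 4.08 over 4.56 to 5.11 in HF/HF offspring. All 18 mice of 28 weeks lay below the 12-week mean of their own diet group, and 10 of them lay below the lowest of the 14 mice of 12 weeks, of which 8 lay above the highest mouse of 28 weeks. The group means were 5.33 ± 0.40 (SD, n = 7 mice) and 5.18 ± 0.42 (SD, n = 7 mice) at 12 weeks and 4.57 ± 0.46 (SD, n = 9 mice) and 4.60 ± 0.39 (SD, n = 9 mice) at 28 weeks, for LF/HF and HF/HF offspring. Averaged over both parental diets, the difference between the ages was -0.67 (SE 0.14, adjusted p = 0.00756 from limma). In LF/HF offspring it was -0.76 (SE 0.20, adjusted p = 0.0624 from limma) and in HF/HF offspring -0.58 (SE 0.20, adjusted p = 0.421 from limma). Two-sided exact permutation tests gave p = 0.00472 and 0.0156, with 8.74e-05 the smallest possible. The difference in HF/HF offspring missed the criterion in array series 2 alone, at -0.22, and with a score of clock gene phase as a covariate, at -0.41. The parental diets did not differ beyond the spread of the mice, at -0.15 (95% interval -0.58 to 0.28) at 12 weeks and 0.031 (-0.35 to 0.41) at 28 weeks.

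The size of the age difference of Enho varied between the array series, at -0.95 in series 1 and -0.40 in series 2, and the adjusted call was lost within each (adjusted p = 0.0596 and 0.592 from limma). It was lost also with the clock covariate, at -0.57 (adjusted p = 0.0778 from limma), while over the 10 alternatives the adjusted p lay between 0.00414 and 0.592. The clock score, 4 genes that peak near dawn minus 11 that peak near dusk, had a median of -1.49 in LF/HF and -0.29 in HF/HF mice of 12 weeks and of -1.86 and -1.78 at 28 weeks. The call held when any single mouse was left out (adjusted p = 0.00322 to 0.0183 from limma). Marker genes of some other liver cells were also lower at 28 weeks, averaged over the parental diets. They were all 12 of Kupffer cells and macrophages (median -0.29, 6 by the criterion) and all 8 of endothelial cells (median -0.22, 2 by the criterion). Of all probe sets 2.26% were lower by the criterion. The 9 lymphocyte markers did not fall as a set, with 5 higher and 4 lower (median 0.15, 1 higher by the criterion). Of 10 hepatocyte markers 6 were lower (median -0.032, 0 by the criterion). Of these 10, 9 lay near the top of the array range. Hnf4a, the other, was at -0.41 (SE 0.14, unadjusted P = 0.005 from limma) in LF/HF offspring. In HF/HF offspring its mean was 9.93 at 12 weeks and 9.88 at 28 weeks. The mean of the Kupffer cell list ran from 6.11 to 6.86 in LF/HF and 5.90 to 7.02 in HF/HF mice of 12 weeks, and from 5.54 to 6.60 and 5.56 to 6.37 at 28 weeks. The mean of the endothelial list ran from 6.36 to 6.67 and 6.15 to 6.38 at 12 weeks, and from 5.73 to 6.45 and 5.90 to 6.25 at 28 weeks. Their part in the result was not tested, and in bulk liver fewer cells of a type and less RNA per cell cannot be told apart.

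**Figure D1:**
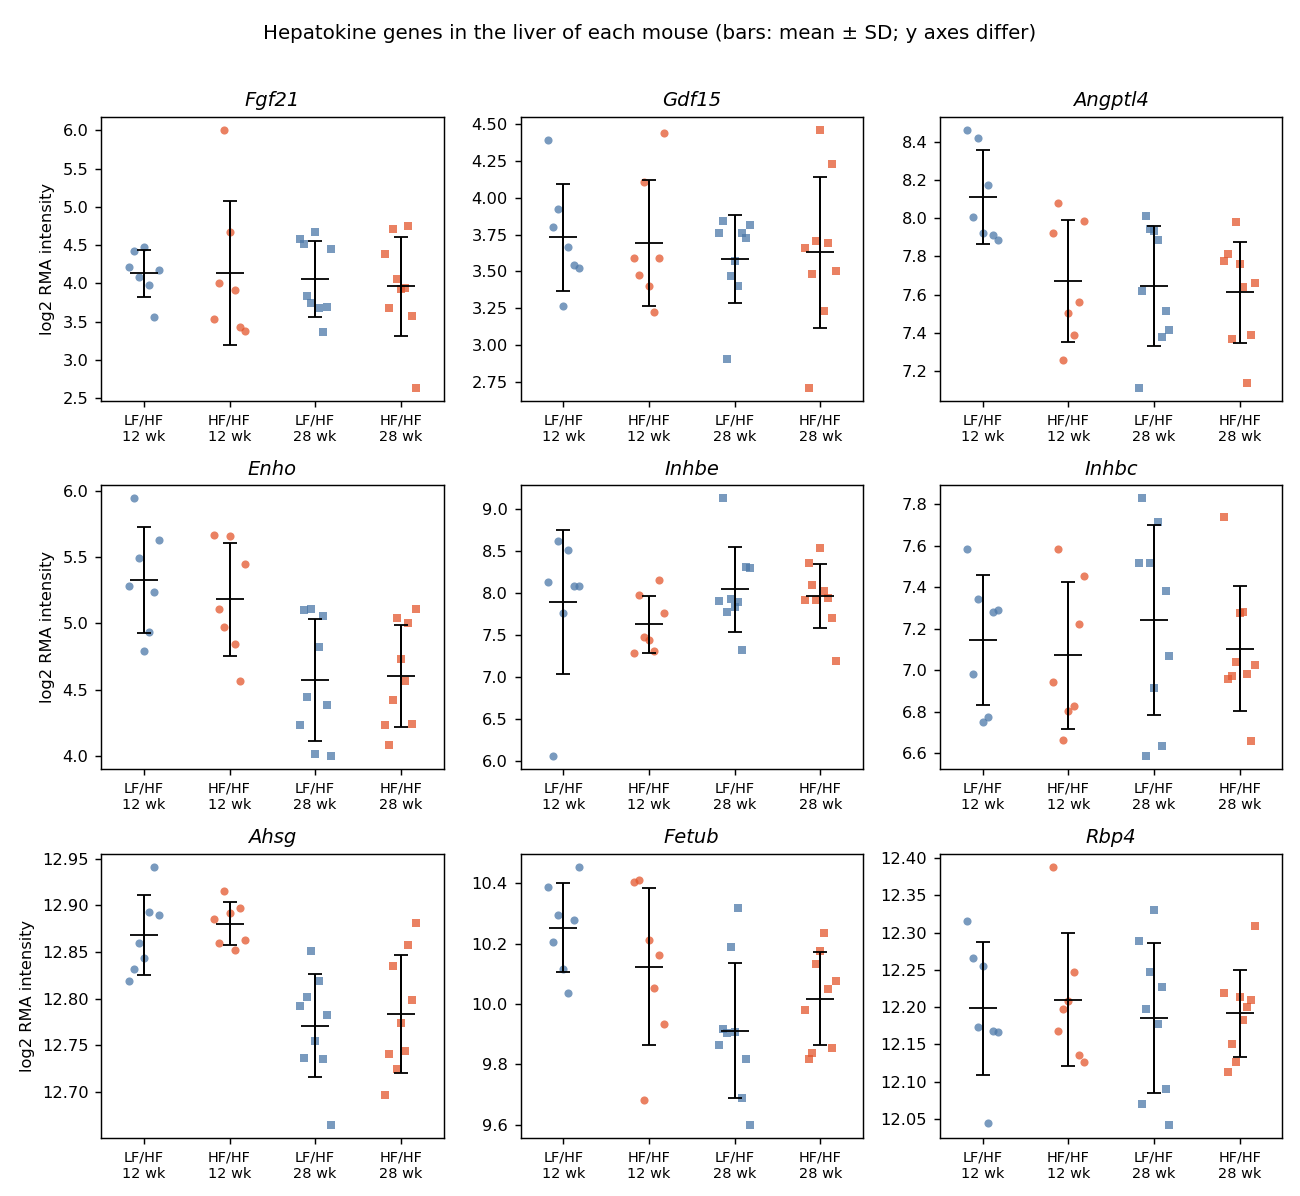
Log2 RMA intensity (y axis, scaled to each gene) of the 9 hepatokine genes in each of the 32 mice, by parental diet and age (x axis). Points are mice, bars the mean ± SD of 7 mice per group at 12 weeks and 9 at 28 weeks. In the Enho panel the groups of 28 weeks sit below those of 12 weeks, at means of 4.57 and 4.60 against 5.33 and 5.18, and in the Angptl4 panel the LF/HF group of 12 weeks lies highest at 8.11.

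Inhbe and Inhbc are neighbours in the genome with no annotated gene between them, and neither met the criterion in any comparison. Inhbe is made mainly by hepatocytes, and activin E acts on fat cells. Its values ran from 6.06 over a median of 8.09 to 8.62 in LF/HF and from 7.28 over 7.48 to 8.15 in HF/HF offspring of 12 weeks. At 28 weeks they ran from 7.32 over 7.91 to 9.13 in LF/HF and from 7.19 over 7.94 to 8.54 in HF/HF offspring. One LF/HF mouse of 12 weeks, replicate 2, lay at 6.06 while the next of its group lay at 7.77, and otherwise the groups overlapped over most of their range. The difference between the parental diets was -0.26 (SE 0.27, unadjusted P = 0.335 from limma) at 12 weeks and -0.080 (95% interval -0.56 to 0.40) at 28 weeks. Without LF/HF replicate 2 it was -0.57 at 12 weeks and met the criterion, and with the clock score as a covariate it was 0.054, so the direction turned with that covariate. Inhbc ran from 6.58 to 7.83 over all 32 mice, with group medians between 6.94 and 7.38. Its difference was -0.073 (95% interval -0.44 to 0.30) at 12 weeks and -0.14 (-0.46 to 0.19) at 28 weeks.

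The fetuins are abundant serum proteins of the cystatin family, of which fetuin-A binds calcium phosphate and inhibits the insulin receptor kinase and fetuin-B inhibits the protease ovastacin. Their genes lie close together on chromosome 16, with 1 annotated gene between their starts. Ahsg had a narrow range, from 12.82 over a median of 12.86 to 12.94 in LF/HF and from 12.85 over 12.89 to 12.92 in HF/HF offspring of 12 weeks. At 28 weeks it ran from 12.66 over 12.78 to 12.85 in LF/HF and from 12.70 over 12.77 to 12.88 in HF/HF offspring. Of the 18 mice of 28 weeks, 13 lay below every mouse of 12 weeks. Averaged over both parental diets, the difference between the ages was -0.097 (SE 0.026, adjusted p = 0.0436 from limma), under the 1.2-fold limit of the criterion. The adjusted p lay between 0.0209 and 0.578 over 10 alternatives and was above 0.05 without the intensity trend (0.144) and without the mice with muscle genes (0.0607), among others. The probe set lay 0.51 below the lowest maximum of an array, where arrays can respond less than in proportion to RNA.

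Fetub ran from 10.04 over a median of 10.28 to 10.45 in LF/HF and from 9.68 over 10.16 to 10.41 in HF/HF offspring of 12 weeks. At 28 weeks it ran from 9.60 over 9.90 to 10.32 in LF/HF and from 9.82 over 10.05 to 10.24 in HF/HF offspring. In LF/HF offspring 7 of the 9 mice of 28 weeks lay below every mouse of 12 weeks, whereas in HF/HF offspring none did. The difference between the ages was -0.34 (SE 0.098, unadjusted P = 0.00133, adjusted p = 0.0952 from limma) in LF/HF offspring, which met the criterion. In HF/HF offspring it was -0.11 (95% interval -0.30 to 0.093). The change in this difference between the parental diets was 0.24 (SE 0.14, unadjusted P = 0.0961 from limma), so it was not shown that the ages differed more in one group. Between the parental diets the difference was -0.13 (95% interval -0.34 to 0.080) at 12 weeks and 0.11 (-0.080 to 0.29) at 28 weeks.

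Rbp4 carries retinol from the liver with transthyretin and has been linked to insulin resistance. It lay between 12.04 and 12.39 in all 32 mice, with group medians of 12.17 to 12.20. All groups overlapped, and the 95% interval of the difference between the parental diets was -0.094 to 0.12 at 12 weeks and -0.087 to 0.099 at 28 weeks.

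Counted over the 9 genes, 1 (Angptl4) was lower by the study criterion in HF/HF offspring at 12 weeks, where 1.47% of all probe sets were lower by it and 2.92% met it in either direction. At 28 weeks it was 0, beside 2.15% of all probe sets, and 0 of the 9 had an unadjusted P under 0.05 from limma, beside 5.13%. For the change in the diet difference between the ages 1 gene (Angptl4) met it, with a positive value, beside 1.92% of all probe sets with a positive value and 4.19% in either direction. Over age, 3 genes (Enho, Angptl4 and Fetub) were lower in LF/HF offspring, beside 3.92% of all probe sets lower and 7.22% in either direction. In HF/HF offspring 1 (Enho) was lower, beside 2.33% lower and 4.1% in either direction. Averaged over the parental diets, 2 genes (Enho and Angptl4) were lower at 28 weeks by the criterion, beside 2.26% of all probe sets lower and 4.05% in either direction. Angptl4 lay just on the limit there, at -0.26 (SE 0.098, adjusted p = 0.183 from limma), and missed it in 14 of 32 fits that left out 1 mouse. At an adjusted p under 0.05, 2 genes (Enho and Ahsg) were lower, beside 0.976% of all probe sets lower and 1.79% in either direction. Averaged over both ages, 0 genes met the criterion between the parental diets, beside 1.18%, and 1 (Angptl4) had an unadjusted P under 0.05, beside 5.14%, at -0.24 (unadjusted P = 0.0197 from limma). The median difference of the 9 genes was -0.073 and 0.0061 between the parental diets at 12 and 28 weeks, and -0.10 between the ages, against 0.00039, -0.0036 and 0.0077 over all probe sets. The comparisons share mice, so the counts are not independent of each other.

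**Figure D2:**
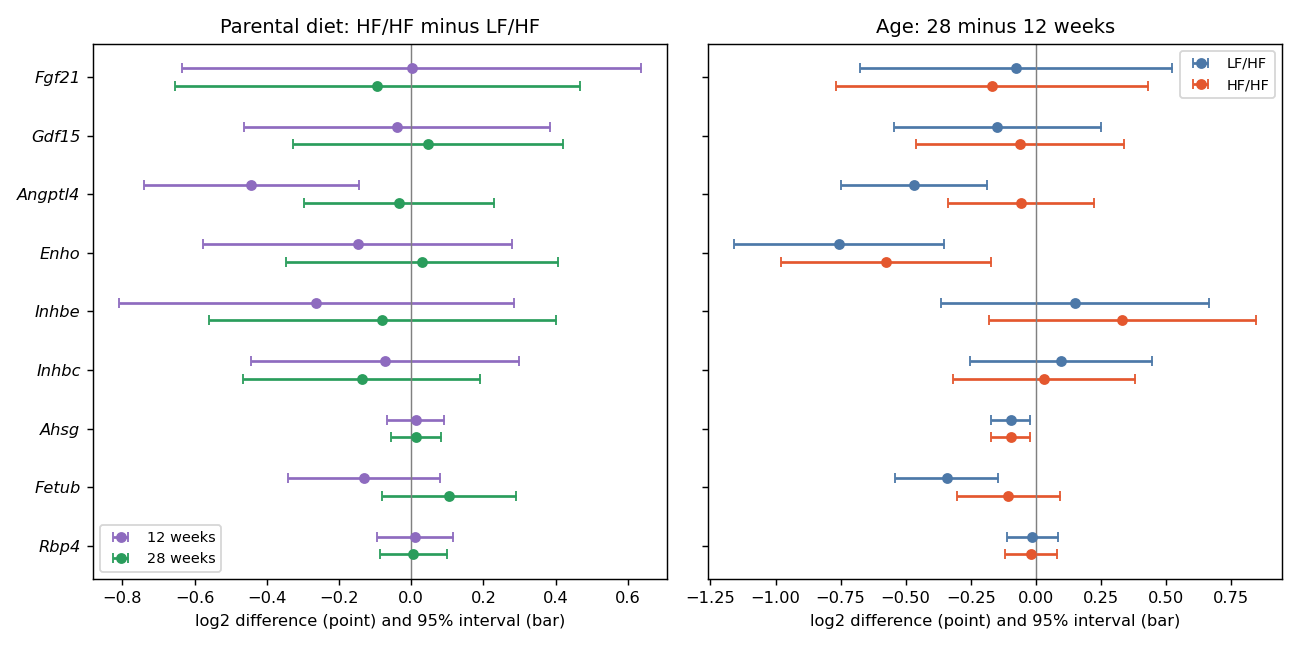
Log2 difference (x axis, point) with its 95% interval from limma (bar) for each hepatokine gene (y axis), between the parental diets at 12 and 28 weeks (left) and between the ages in LF/HF and HF/HF offspring (right). The intervals of Angptl4 at 12 weeks on the left, and of Enho and Ahsg in both diet groups and Angptl4 and Fetub in LF/HF offspring on the right, do not cross 0.

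The genes differed in how much they varied between mice of 1 group. Inhbe had a residual SD of 0.54, larger than that of 98.2% of the 500 probe sets nearest in level, and Fgf21 one of 0.63, larger than 97.8%. Both were largest in the group with 1 mouse far apart. For Inhbe the SD was 0.86 in LF/HF offspring of 12 weeks and 0.34 to 0.50 in the other groups. For Fgf21 it was 0.94 in HF/HF offspring of 12 weeks and 0.31 to 0.65 in the others. Enho (0.42), Inhbc (0.37), Gdf15 (0.41) and Angptl4 (0.29) were above 92.6%, 91.0%, 88.8% and 88.0% of theirs. Fetub lay near the middle, with 0.20 and 58.4%. Ahsg and Rbp4 had residual SDs of 0.050 and 0.085, but lay 0.51 and 1.13 below the lowest array maximum, where the spread may be compressed and few probe sets are of like level.

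Of the 36 pairs of hepatokine genes, 1 was correlated across the 32 mice after removal of the group means, with permutation p-values adjusted over the pairs. Inhbe and Rbp4 ran in opposite directions, with Pearson's r of -0.58 (permutation p = 0.00097, adjusted p = 0.0349) and Spearman's rho of -0.70 (permutation p = 4e-05, adjusted p = 0.00144). Pearson's r was -0.63 without the 2 mice farthest from the median of Inhbe, -0.50 and -0.82 within array series 1 and 2, and between -0.75 and -0.50 within each of the 4 groups. After cyclic loess normalization it was -0.48 and its adjusted p 0.104. Fetub and Inhbc ran together by rank, with r of 0.51 (permutation p = 0.00634, adjusted p = 0.114) and rho of 0.56 (permutation p = 0.00214, adjusted p = 0.0385), and with r of 0.51 without the 2 farthest mice and 0.43 and 0.74 within the array series. Further pairs with an unadjusted permutation p under 0.05 were Angptl4 with Fetub (r = 0.48, rho = 0.47), Fetub with Enho (r = 0.45, rho = 0.48) and Inhbe with Inhbc (r = 0.42, rho = 0.48). Their adjusted p was 0.124 for r and 0.0882 to 0.0941 for rho. The neighbouring genes Ahsg and Fetub had an r of 0.20 (permutation p = 0.254, rho = 0.14).

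**Figure D3:**
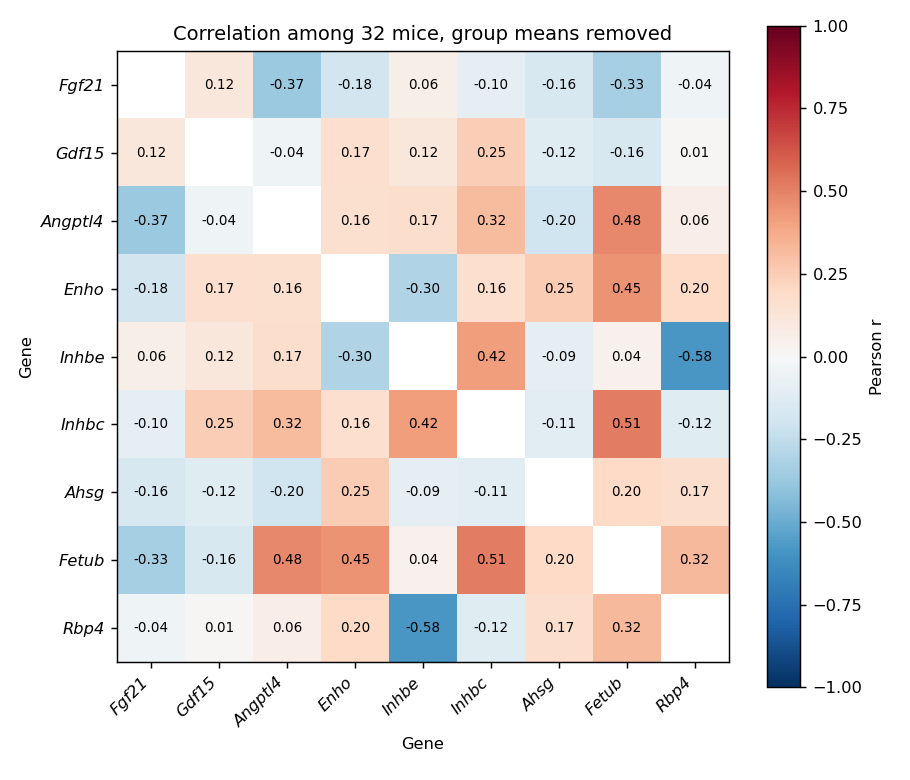
Pearson's r (colour and number) for the 36 pairs of hepatokine genes (both axes), from log2 values of 32 mice with the mean of each group removed. The bluest cell is Inhbe with Rbp4 at -0.58 and the reddest Fetub with Inhbc at 0.51.

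**Figure D4:**
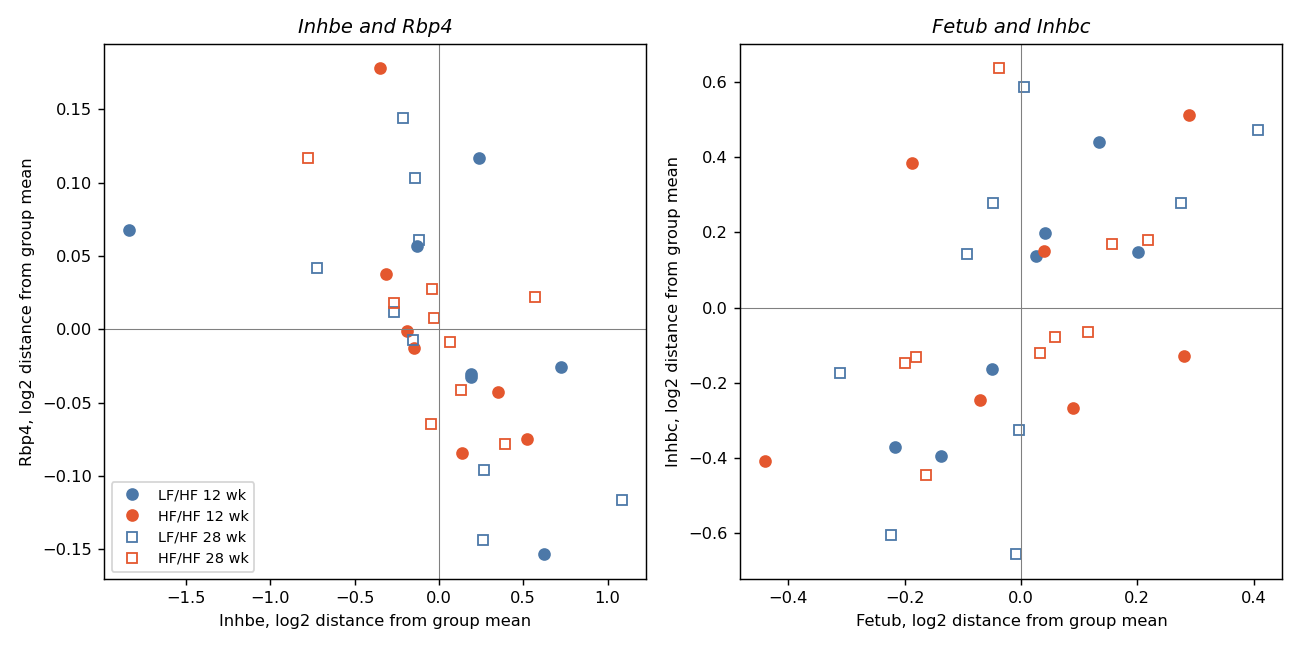
Distance of each mouse from the mean of its group in Inhbe and Rbp4 (left) and in Fetub and Inhbc (right), on the log2 scale, with 1 symbol per mouse in the 4 groups. Rbp4 falls as Inhbe rises (r = -0.58), and the Inhbe axis includes LF/HF replicate 2 of 12 weeks far to the left, while Inhbc tends to be higher where Fetub is (r = 0.51).

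For each hepatokine gene, the genes with the most similar pattern were taken by Pearson's r over the 32 mice with group means removed, among 9972 named probe sets at or above the median level. They are descriptions, since the highest of many values is large by construction. Fgf21 was followed most closely by Slc1a4, a neutral amino acid transporter, Unc5b and Osbpl3, with r of 0.79, 0.78 and 0.78. Angptl4 was followed by Slc16a10, a transporter of aromatic amino acids (0.80), and by Cyp27a1, an enzyme of bile acid synthesis (0.63). Inhbe was followed by Zfand2a, Kank2 and Flot2 (0.84, 0.83 and 0.82) and Inhbc by Cmip and Sf1 (0.84 and 0.80). Rbp4 was followed by Trim56, Apoh, a lipid-binding serum protein, and Rpl30, a ribosomal protein (0.81, 0.81 and 0.80). Fetub was followed by Ces3a, Ecm1 and Pik3r4 (0.77, 0.77 and 0.76), Ahsg by the complement gene C2 (0.68), and Gdf15 by Nek9 (0.60). For Enho these were Selenbp2 (0.64) and the complement genes C6 (0.60) and C8b (0.59).

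No receptor or partner of the hepatokines passed the adjusted test between the parental diets. Among 16 genes of the activin and inhibin axis, 5 met the criterion at 12 weeks, 2 higher and 3 lower in HF/HF offspring, and 0 at 28 weeks, beside 2.92% and 2.15% of all probe sets. Those of smallest P were Tgfbr3, a co-receptor of inhibin, at -0.46 (SE 0.13, unadjusted P = 0.00162 from limma) and Inhba, the activin A subunit, at -0.75 (SE 0.26, unadjusted P = 0.00643 from limma). The receptor gene Acvr2b was at -0.31 (SE 0.13) and Fst, the gene of the activin antagonist follistatin, at 0.39 (SE 0.18). The median of the list was -0.036, beside 0.00039 over all probe sets. Among 8 genes of the FGF21 axis, 0 met the criterion at 12 weeks and 1 at 28 weeks, Fgfr1, the FGF21 receptor gene, at 0.49 (SE 0.17, unadjusted P = 0.00619 from limma). Of 9 genes around ANGPTL4 and lipases, 0 met it at 12 weeks and 1 at 28 weeks, Angptl6, at -0.32 (SE 0.14). Of 9 genes of retinol transport, 0 met it at 12 weeks and 1 at 28 weeks, Lrat, which stores retinol as esters, at -0.53 (SE 0.17). Lrat is also a gene of stellate cells, but of the 11 stellate cell and fibroblast markers 8 were higher and 3 lower in HF/HF offspring at 28 weeks (median 0.11). None of the 5 fetuin relatives, or of the 3 receptors of GDF15 and adropin, met it at either age.

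Between the ages, averaged over the parental diets, 2 of the 9 genes around ANGPTL4 were higher at 28 weeks, Lipg, the gene of endothelial lipase, at 0.60 (SE 0.18, adjusted p = 0.0896 from limma) and Cd36, a fatty acid transporter, at 0.55 (SE 0.23). Of the retinol genes, Cyp26a1, which breaks down retinoic acid, met the criterion at 0.93 (SE 0.33, adjusted p = 0.160 from limma). Rdh10, picked after its values were seen, passed the adjusted test at 0.24 (SE 0.053, adjusted p = 0.0107 from limma), under the fold limit. In this average no gene of the FGF21 axis, activin, fetuin and receptor lists met the criterion. In LF/HF offspring alone, 3 of the 16 activin genes were lower by it, beside 3.92% of all probe sets. Among them Tgfbr3 was at -0.54 (SE 0.13, adjusted p = 0.0264 from limma). In HF/HF offspring 1 was lower, Fst, beside 2.33%. Of the FGF21 axis, 1 gene was higher and 1 lower in LF/HF offspring and 0 met it in HF/HF offspring. Of 24 further genes of liver-secreted factors, 4 were higher and 3 lower at 28 weeks by the criterion in the average over the parental diets. Of all probe sets 4.05% met it there in either direction. Igfbp1, whose protein binds insulin-like growth factors, was at -1.33 (SE 0.25, adjusted p = 0.00190 from limma), next to Igfbp2 at -0.37 (SE 0.10, adjusted p = 0.0612 from limma). Manf was at -0.35 (SE 0.11), and Lect2, the gene of a hepatokine not among the 9, was higher at 0.29 (SE 0.079, adjusted p = 0.0441 from limma). The median of this list was -0.013.

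Regulators known to act on hepatokine genes were followed through the mean of 6 gene lists, each correlated with the 9 genes over the 32 mice after removal of the group means. The lists held targets of the integrated stress response, PPARalpha and glucocorticoids, acute-phase genes, clock genes and genes of carbohydrate response and lipogenesis. Of the 54 pairs, 0 had an adjusted permutation p under 0.05 by Pearson's r or Spearman's rho, and 10 an unadjusted p under 0.05 by Pearson's r. Fgf21 had an r of 0.65 with the integrated stress response targets (permutation p = 0.00458, adjusted p = 0.0708, rho = 0.45, permutation p = 0.0126), which was 0.24 without the 2 mice farthest from the median of the list. With the targets of the fatty acid sensor PPARalpha its r was 0.51 (permutation p = 0.00758, adjusted p = 0.0708, rho = 0.40, permutation p = 0.0279), and 0.60 without the 2 farthest mice. The other genes with an unadjusted permutation p under 0.05 for this list, Fetub and Enho, ran against it. Their r was -0.42 and -0.40 (adjusted permutation p = 0.143 and 0.168, rho = -0.32 and -0.40). Inhbe and Rbp4, whose windows also held TGATGNAA, had an r of -0.14 and 0.010 with the integrated stress response targets. Enho and Rbp4 ran against the genes of carbohydrate response and lipogenesis, with r of -0.54 and -0.52 (adjusted p = 0.0708 for both, rho = -0.51 and -0.47), whereas Inhbe ran with them (r = 0.51, rho = 0.41, adjusted p = 0.0708). Without the 2 farthest mice these were -0.56, -0.49 and 0.54. Inhbe also had an r of 0.48 with the clock genes (permutation p = 0.00532, adjusted p = 0.0708, rho = 0.43). The mean of the clock list takes genes that peak near dawn and near dusk with the same sign, so it does not follow clock phase. The clock score was not correlated with the hepatokine genes. Among the 20 PPARalpha targets, 5 were higher at 28 weeks by the criterion, beside 4.05% of all probe sets in either direction. The highest of them was Cyp4a14 at 2.14 (SE 0.33, adjusted p = 0.000205 from limma), a gene with close relatives that share sequence. Averaged over the parental diets, 5 of the 15 genes of carbohydrate response and lipogenesis were higher and 1 lower at 28 weeks by the criterion (median 0.24). Of the 18 clock genes 5 were higher and 3 lower (median 0.11).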

How the data were processed

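Total RNA from 32 livers was measured on a whole transcript array of Affymetrix (Mouse Gene ST). The authors normalized the signal by RMA in the MADMAX pipeline and deposited it as linear intensity for 21115 probe sets, and the submitters' processing notes name RMA and limma. Tool versions and genome build are not given in the sources used here. The 2 deposited tables hold the same values, which differed by at most 7.15e-10 on the log2 scale, and 1 of them names the array series in its headers. That table also holds the authors' fold changes, p-values and q-values between the groups, which were not used. The authors obtained these p-value and q-value columns from a moderated test that is described as paired. The pairs are not given, so mice were compared as independent groups. No per-sample column was left unmapped.

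The log2 of each intensity was fitted with limma 3.58.1 in R 4.3.3, with 1 mean per group over 32 arrays and an intensity trend in eBayes, without a filter on level. Mice of 2 groups were also compared by exact permutation. Correlations were tested with 100000 resamples of mice within groups (10000 for the alternatives), adjusted over 36 and 54 pairs. The number of arrays limits the precision.

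The members and lists were chosen with earlier results of these data known. Genes named beside the members are the up to 4 of smallest P past the study criterion in each list and up to 3 of highest r per member. Not all of the latter are reported here. Alternatives were eBayes without trend, only the 2 groups compared, replicate number as a block, cyclic loess, only probe sets of median level or higher, array weights, the array series as a block and alone, without 3 mice with muscle genes, clock phase as a covariate, other thresholds and each mouse left out. The block over both ages was added after seeing the data.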

Additional observations from a re-analysis of the deposited data

Results flagged for a closer look

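The lowest LF/HF mouse of 28 weeks in Gdf15, replicate 3, lay at 2.90 on the log2 scale, with the next at 3.40, a gap that took 0.533 of the range of its group. The lowest LF/HF mouse of 12 weeks in Inhbe, replicate 2, lay at 6.06, with the next at 7.77, a gap of 0.667 of the range. Of 36 groups of values tested for such gaps 2 were found, and chance gives about 5% of groups. The parental diet difference of Angptl4 changed by 0.409 from 12 to 28 weeks (unadjusted P = 0.0436, adjusted p = 0.974 from limma), from -0.44 to -0.034.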

How the results depend on the processing

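Counts of hepatokine genes called moved as follows. At 12 weeks, 1 gene met the criterion between the parental diets, and 0 did in array series 2 alone, at an adjusted p under 0.05 and at a fold limit of 1.5. The change of the diet difference between the ages (1 gene) fell to 0 with array weights, in either array series alone, without the mice with muscle genes, with the clock covariate, at an adjusted p under 0.05 and at a fold limit of 1.5. The age count in LF/HF offspring (3) was 0 at an adjusted p under 0.05 and 1 at a fold limit of 1.5. That in HF/HF offspring (1) was 0 in array series 2 alone, with the clock covariate, at an adjusted p under 0.05 and at a fold limit of 1.5, and 2 with no fold limit. The age count averaged over the diets (2) was 1 with the replicate block, without the mice with muscle genes and at a fold limit of 1.5, and 4 with no fold limit. The diet count averaged over the ages (0) was 1 with no fold limit. When each mouse was left out in turn, these counts ran from 1 to 2, 0 to 2, 3 to 3, 1 to 1, 1 to 2 and 0 to 1, in this order, and that at 28 weeks stayed at 0. The number of correlated pairs (1) was 2 by Spearman's rho, 0 after cyclic loess, 4 with the group means kept and 0 in array series 1 alone.

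The following log2 differences changed sign, and the cause was not tested. Between the diets at 12 weeks, Fgf21 was -0.094 with array weights, -0.072 with the array series as a block, -0.48 in series 2 alone, -0.30 without the mice with muscle genes and -0.049 with the clock covariate. Ahsg was -0.017 after cyclic loess, -0.021 in series 2 alone and -0.0016 without the mice with muscle genes, and Gdf15 was 0.26 and 0.0015 under the latter pair. Inhbc was 0.14 and 0.068 under the same pair, and Inhbe was 0.054 with the clock covariate. Rbp4 was -0.015 after cyclic loess, -0.011 in series 1 alone and -0.0062 with the clock covariate. Between the diets at 28 weeks, series 1 alone gave 0.0072 for Angptl4, -0.038 for Ahsg, -0.014 for Fetub, -0.12 for Gdf15, -0.074 for Rbp4 and -0.14 for Enho, and Rbp4 was -0.0058 without the mice with muscle genes. Between the ages in HF/HF offspring, Angptl4 was 0.042 in series 1 alone and Fetub 0.028 in series 2 alone. Averaged over the diets, Fgf21 was 0.065 without the mice with muscle genes, series 2 alone gave 0.12 for Gdf15, -0.011 for Inhbe and 0.014 for Rbp4, and the clock covariate gave 0.029 for Gdf15 and -0.028 for Inhbe. None of these differences had met the criterion.

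Leaving out single mice also turned the sign of small differences. Between the diets at 12 weeks the ranges were -0.31 to 0.13 for Fgf21, -0.17 to 0.071 for Gdf15, -0.16 to 0.00071 for Inhbc and -0.018 to 0.031 for Rbp4. At 28 weeks they were -0.19 to 0.072 for Fgf21, -0.10 to 0.025 for Angptl4, -0.00047 to 0.024 for Ahsg, -0.058 to 0.16 for Gdf15, -0.17 to 0.056 for Inhbe, -0.012 to 0.024 for Rbp4 and -0.041 to 0.10 for Enho. Between the ages they were -0.13 to 0.0096 for Angptl4 in HF/HF offspring and -0.18 to 0.034 for Fgf21 averaged over the diets. The criterion for the Angptl4 change between the ages was lost in 18 of 32 such fits.

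Mice of the same replicate number showed no steady likeness. Their correlations ran from -0.22 to 0.18 at 12 weeks, with 2 of 7 over 0.1, and from -0.17 to 0.14 at 28 weeks, with 2 of 9 over 0.1. At these ages 2 of 7 and 1 of 9 mice correlated best with their own number. The numbers need not be the pairs of the authors, so this check cannot show whether or how mice were paired. With the replicate block, Angptl4 at 12 weeks stayed at -0.44 (unadjusted P = 0.00505 from limma), and its age difference was -0.22 (unadjusted P = 0.0547 from limma), which ended that call. The precision is limited by the number of arrays. Fgf21 and Gdf15 lay near the median probe set, and Enho lay 1.78 above it on the log2 scale.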
